A study of Homo sapiens with 3 samples.

Results

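The promoters described here belong to 6 genes, NOS1AP, ATP1B1, LITAF, CNOT1, RNF207 and SLC35F1, which name regions of the genome associated with the length of the QT interval. A promoter fragment was taken for a gene when it was listed as a promoter fragment in the calls of any of the 3 replicates and held at least 1 annotated transcript start of that gene. This rule gave 8 of the 19075 promoter fragments listed. NOS1AP had 2 such fragments, CNOT1 had 3, and ATP1B1, LITAF and RNF207 had 1 each. The promoter fragment of SLC35F1 was listed only in the calls on the merged replicates, so this gene contributed no interaction to the counts over replicates.

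Promoter capture Hi-C (PCHi-C) joins DNA fragments that lay close together in the nucleus and enriches the ligation products that carry a promoter. It was applied to hESC-CMs in 3 biological replicates. These are cardiomyocytes differentiated from WA09 (H9) cells, a human embryonic stem cell line, with a commercial kit, enriched in lactate medium without glucose and then cultured further before fixation. All cells came from this 1 line and the 3 replicates formed 1 condition, so there was no comparison between conditions and no control group. The measurement was made on DNA, so the cardiomyocyte label could not be checked against marker RNA in these data; per the labels, purity was tested on the cultures with MYH7 and TNNT2, and the cells were mostly but not all cardiomyocytes.

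The QT interval of the electrocardiogram spans the depolarisation and repolarisation of the ventricles, and its length depends on the ion currents of cardiomyocytes. NOS1AP encodes an adaptor of neuronal nitric oxide synthase. ATP1B1 encodes a beta subunit of the sodium-potassium pump, LITAF an endosomal membrane protein, CNOT1 the scaffold of a complex that shortens the poly(A) tails of mRNAs, RNF207 a RING finger protein of the heart, and SLC35F1 a member of a solute carrier family. An association signal carries the name of a nearby gene by convention. A promoter can contact sequence beyond its neighbouring gene, and each such contact appears in PCHi-C as a pair of a promoter fragment and a promoter interacting region (PIR), which here is 1 HindIII restriction fragment.

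The core promoters of 3 of these genes are printed first, because they lie on the capture fragments of RNF207 and ATP1B1, the genes with the most contacts in the replicates, and of LITAF, which had 2. Each line gives the 250 bases before a RefSeq transcript start, 5′ to 3′ on the strand of the gene. The sequences were taken from the RefSeq promoter table (GRCh38.p14) and placed by an exact match in GRCh37. That table held 4 of the 6 genes. Its start of NOS1AP lay near the 3′ end of the gene and on no listed promoter fragment, so that sequence is not printed. CNOT1 and SLC35F1 were not printed either. Capitals mark GC boxes (GGGCGG) and CCAAT boxes (CCAAT) on either strand.
ATP1B1 promoter, chr1:169075678-169075927, plus strand: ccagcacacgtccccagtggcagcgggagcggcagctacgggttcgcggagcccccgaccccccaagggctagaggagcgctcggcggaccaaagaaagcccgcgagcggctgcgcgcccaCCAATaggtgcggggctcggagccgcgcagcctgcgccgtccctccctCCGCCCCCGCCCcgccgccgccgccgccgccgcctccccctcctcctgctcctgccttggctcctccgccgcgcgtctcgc
LITAF promoter, chr16:11680776-11681025, minus strand: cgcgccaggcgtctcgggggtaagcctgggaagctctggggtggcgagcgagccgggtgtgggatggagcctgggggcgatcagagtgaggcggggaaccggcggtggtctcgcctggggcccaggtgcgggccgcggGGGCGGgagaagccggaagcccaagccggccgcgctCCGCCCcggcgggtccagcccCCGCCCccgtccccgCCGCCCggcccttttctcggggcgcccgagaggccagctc
RNF207 promoter, chr1:6265929-6266178, plus strand: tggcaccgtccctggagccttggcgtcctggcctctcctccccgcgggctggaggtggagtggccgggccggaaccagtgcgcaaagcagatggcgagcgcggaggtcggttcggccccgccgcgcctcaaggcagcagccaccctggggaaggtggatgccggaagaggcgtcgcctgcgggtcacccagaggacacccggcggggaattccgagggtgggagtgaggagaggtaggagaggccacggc
The ATP1B1 stretch held 2 GC boxes and 1 CCAAT box, and the LITAF stretch held 4 GC boxes. In the RNF207 stretch there was no match to either motif. Of the 35116 promoters listed by RefSeq, 42.6% held a GC box and 32% a CCAAT box over the same length. The GC content was 77.6% for ATP1B1, 78.4% for LITAF and 71.6% for RNF207, against a median of 58% over all its promoters. All 3 sequences lay above that median, those of the genes with many PIRs and that of LITAF.

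The next lines show 300 bases from the centre of the PIR with the highest mean score for ATP1B1 and for RNF207, and of the fragment inside SLC35F1 that the promoter of PLN contacted with the highest mean score. PLN encodes phospholamban, an inhibitor of the calcium pump of the sarcoplasmic reticulum. All are on the plus strand of GRCh37.
PIR of ATP1B1, chr1:168573593-168573892, between XCL1 and DPT: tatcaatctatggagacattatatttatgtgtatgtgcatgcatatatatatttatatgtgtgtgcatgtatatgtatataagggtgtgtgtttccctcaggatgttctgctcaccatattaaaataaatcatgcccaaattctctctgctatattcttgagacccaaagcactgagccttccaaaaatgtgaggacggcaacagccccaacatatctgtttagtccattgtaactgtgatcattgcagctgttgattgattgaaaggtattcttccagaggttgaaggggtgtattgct
PIR of RNF207, chr1:6117142-6117441, in an intron of KCNAB2: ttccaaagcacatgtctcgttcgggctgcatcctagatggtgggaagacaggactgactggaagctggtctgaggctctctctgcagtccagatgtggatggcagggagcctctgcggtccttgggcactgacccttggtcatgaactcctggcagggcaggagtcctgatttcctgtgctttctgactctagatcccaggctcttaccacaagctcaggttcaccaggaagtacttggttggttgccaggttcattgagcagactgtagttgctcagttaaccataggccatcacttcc
PIR of PLN, chr6:118604628-118604927, in an intron of SLC35F1: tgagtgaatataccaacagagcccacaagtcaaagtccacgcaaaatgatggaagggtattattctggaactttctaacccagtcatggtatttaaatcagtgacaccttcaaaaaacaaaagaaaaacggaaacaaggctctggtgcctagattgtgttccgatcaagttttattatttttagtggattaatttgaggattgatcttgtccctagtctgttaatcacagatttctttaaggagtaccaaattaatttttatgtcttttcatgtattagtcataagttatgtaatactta
Searched on both strands, none of these windows matched the CTCF core, the MEF2 site, the GATA letters AGATAAG, the T-box letters AGGTGTGA or the NKX2-5 letters CACTTGA. Over the central windows of 114044 PIRs the shares with a match were 0.999% for CTCF, 5.08% for MEF2, 4.31% for GATA, 2.8% for T-box and 7.39% for NKX2-5. Among 192 windows of PIRs of the QT locus promoters, 3 matched the CTCF letters, 4 MEF2, 5 GATA, 2 T-box and 13 NKX2-5. These 192 included PIRs called only on the merged replicates, whereas the 114044 were PIRs of the single replicates. The window in SLC35F1 had a GC content of 33.7%, the one of ATP1B1 37.7% and the one of RNF207 54%.

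The strength of each contact is given as a CHiCAGO score, which rises with the excess of read pairs over a background that depends on distance and technical noise. Scores under 5 were not listed, so a contact missing from a replicate had a score under 5 or was not seen there at all. The replicates held 112473, 109731 and 110740 interactions, and their union held 200587, of which 24% were called in all 3. For the 8 promoter fragments 85, 111 and 92 interactions were called in replicates 1, 2 and 3 (96 ± 13.5, SD, n = 3), and their union held 175. Of these, 46 were called in all 3 replicates (26.3%, 95% Wilson interval 20.3 to 33.3), 21 in 2 and 108 in 1. The interval included the share over all promoter fragments.

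RNF207 and ATP1B1 had most of these interactions. RNF207 was called in 33, 41 and 42 interactions (38.7 ± 4.93, SD, n = 3) and ATP1B1 in 31, 42 and 30 (34.3 ± 6.66). CNOT1 followed with 10, 15 and 9 (11.3 ± 3.21) and NOS1AP with 10, 13 and 10 (11 ± 1.73). LITAF had 1 call in replicate 1, none in replicate 2 and 1 in replicate 3, and SLC35F1 had none in any replicate. The ranges of RNF207 and ATP1B1 overlapped (exact permutation test of the differences within replicates, two-sided, p = 0.5), as did those of CNOT1 and NOS1AP (exact p = 1) and those of LITAF and SLC35F1 (exact p = 0.5). ATP1B1 lay above CNOT1 in 3 of 3 replicates and NOS1AP lay above LITAF in 3 of 3, with no overlap of the ranges. Each of those differences had an exact p of 0.25, the smallest that 3 replicates can give. The order was set by these same calls, so the tests lend it no support of their own. CNOT1 was counted over 3 promoter fragments and NOS1AP over 2, and with 1 each they had 11 and 6 interactions in the union. The median promoter fragment had 6 PIRs in the union, 96.95% of promoter fragments had fewer than ATP1B1 and 99.1% had fewer than RNF207, while 9.62% had fewer than LITAF.

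**Figure D1:**
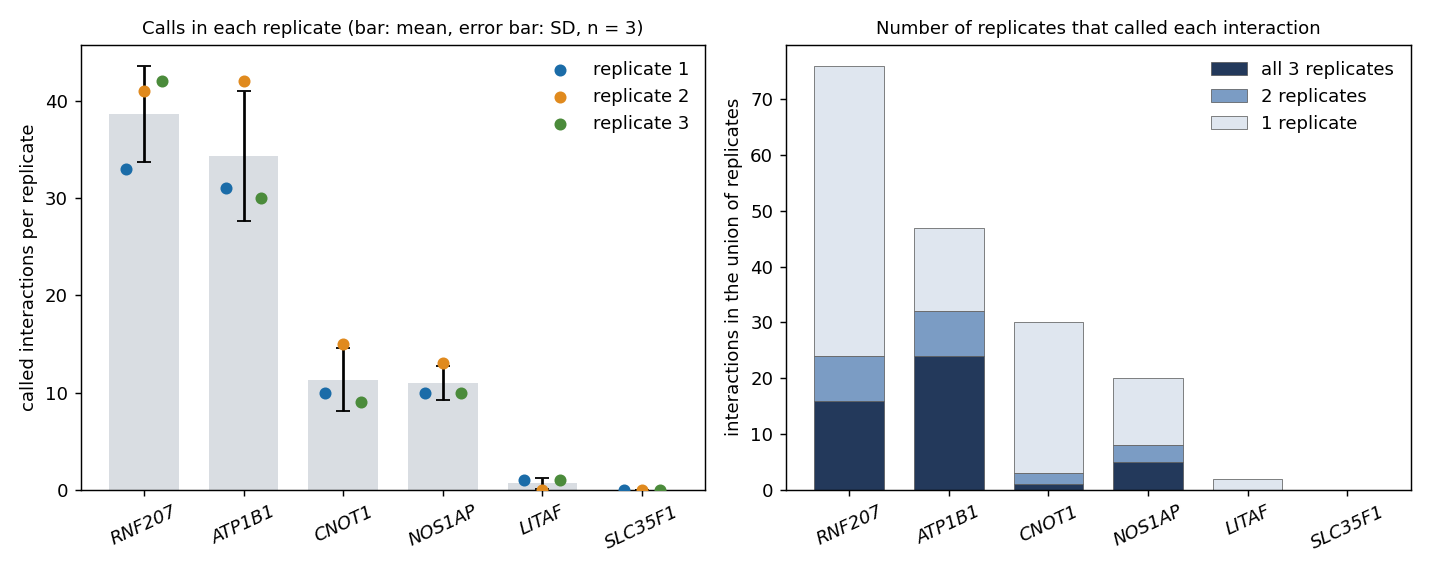
The left plot shows the number of called interactions of each gene in each replicate as points, with the mean as a bar and the SD (n = 3) as an error bar. The right plot divides the interactions in the union into those called in 3, 2 or 1 replicates; ATP1B1 had 24 of 47 in all 3, RNF207 had 16 of 76, NOS1AP 5 of 20, CNOT1 1 of 30 and LITAF 0 of 2.

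The genes also differed in how often a contact recurred. At least 1 contact in all 3 replicates was found for 5 of the 8 promoter fragments, against 51.9% of all promoter fragments. ATP1B1 had 24 of 47 interactions in all 3 replicates (51.1%, Wilson interval 37.2 to 64.7), RNF207 16 of 76 (21.1%, 13.4 to 31.5), NOS1AP 5 of 20 (25%, 11.2 to 46.9) and CNOT1 1 of 30 (3.33%, 0.591 to 16.7). The interval of ATP1B1 lay above the 24% over all promoter fragments and that of CNOT1 below it. Contacts of 1 promoter with adjacent fragments are not independent of each other, and these intervals cover counting error alone.

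Recurrence was counted by the highest score an interaction reached in any replicate, a grouping that is not independent of recurrence since scores under 5 are not listed, and by distance. None of the 67 interactions whose highest score lay between 5 and 6 was called in all 3 replicates, which allows a share of up to 4.48%, and over all promoter fragments that share was 1.99%. Of 55 with a highest score from 6 to 8, 16 were called in all 3 (29.1%, against 17.95% over all promoter fragments), and of 29 from 8 to 10, 17 were (58.6% against 43.5%). Of the 24 with a score of 10 or more, 13 were (54.2% against 70.6%). Within 1 Mb 41 of 97 interactions recurred in all 3 replicates (42.3%, against 34% over all promoter fragments), whereas over 1 Mb 5 of 73 did (6.85%, against 11.8% over all promoter fragments). The remaining 5 interactions joined different chromosomes, and each of those was called in 1 replicate.

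The 175 interactions had a median distance of 494 kb between fragment midpoints, and those called in all 3 replicates 382 kb, against 716 kb and 395 kb over all promoter fragments. The median was 475, 469.7 and 473 kb in replicates 1, 2 and 3. In 22 of the 175 interactions both ends were promoter fragments, against 9.59% of the interactions of all promoter fragments. Of the 177 PIRs, 13.6% were promoter fragments (Wilson interval 9.28 to 19.4), against 10.6% of the PIRs of all promoters.

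ATP1B1 had the most recurrent contacts of the 6 genes. Its promoter fragment, chr1:169070988-169080524 (9537 bp), held 16 of 19 annotated transcript starts. Of its 46 contacts on chromosome 1, 45 lay upstream of the gene and 1 downstream. PIRs with gaps of at most 50 kb between them were joined into blocks. For ATP1B1 they gathered in a block of 151 kb, chr1:168568082-168719514, which began 358 kb and ended 506 kb upstream and ran from the intergenic sequence after the chemokine gene XCL1 across DPT, which encodes the matrix protein dermatopontin. Of the 66 HindIII fragments in this block 39 were PIRs of ATP1B1, with 27, 36 and 29 called in replicates 1, 2 and 3 (30.7 ± 4.73, SD, n = 3). Of the 39, 23 were called in all 3 replicates and all 39 also on the merged replicates.

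The highest scores of ATP1B1 lay at the far edge of that block. The fragment chr1:168572570-168574915, 502 kb upstream and shown in part above, scored 16.36, 22.39 and 17.21 in replicates 1, 2 and 3 (18.65 ± 3.26, SD, n = 3) and 25.79 on the merged replicates. Its neighbour chr1:168571140-168572569 scored 11.91, 16.66 and 17.06 (15.2 ± 2.86). On the other side chr1:168574916-168583329 scored 11.95, 13.79 and 12.57 (12.8 ± 0.936), and beyond them chr1:168568082-168571139 scored 9.22, 10.03 and 11.17 (10.1 ± 0.98). These 4 adjacent fragments, all between XCL1 and DPT, formed 1 peak of scores. For 86.3% of the 9901 promoter fragments with a contact in all 3 replicates, the highest mean score was lower than for ATP1B1. The median of that highest mean score was 9.75.

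A second, lower rise lay on the near side of DPT. There chr1:168717028-168719514, which holds the start of the non-coding gene AL049798.1, scored 7.10, 8.49 and 11.77 (9.12 ± 2.4, SD, n = 3), and chr1:168706654-168708301 scored 7.72, 8.73 and 10.06 (8.84 ± 1.17). Within introns of DPT, 4 fragments recurred in all 3 replicates, and their mean scores ranged from 5.79 to 7.34. The promoter fragment of DPT itself, chr1:168697806-168701048, was contacted with scores of 6.97 and 7.77 in replicates 2 and 3 and was not called in replicate 1. A separate contact 764 kb upstream, between TBX19 and XCL2, scored 6.85, 6.26 and 9.58 (7.56 ± 1.77). DPT was the 1 protein-coding neighbour of 6 within 500 kb whose promoter ATP1B1 contacted. The single contact with another chromosome, with chromosome 5, scored 10.35 in replicate 1 and was not called in the other replicates.

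**Figure D2:**
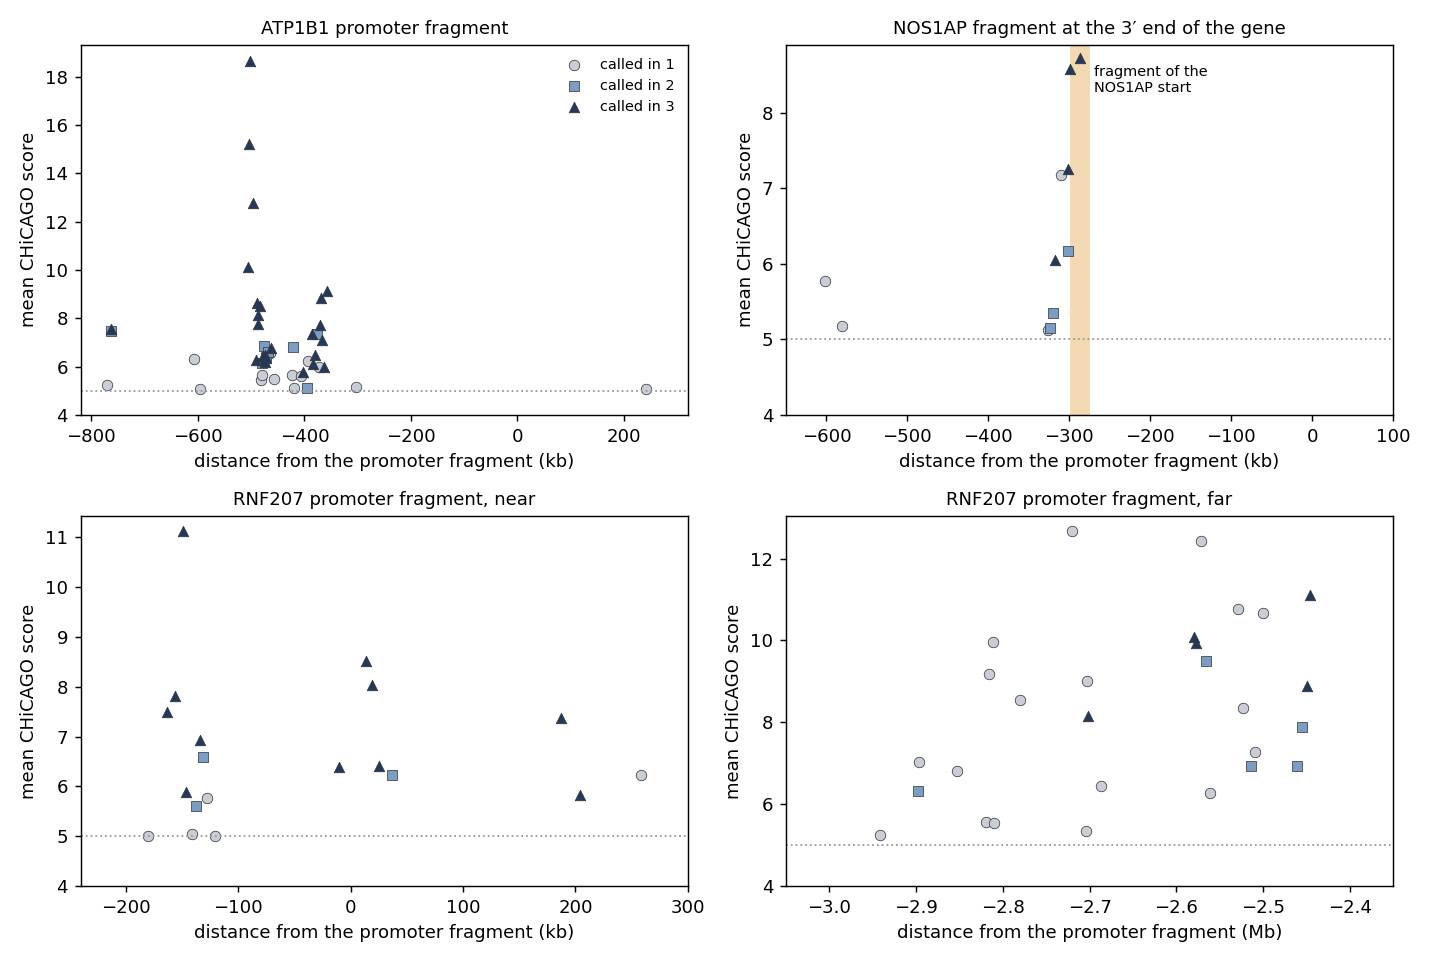
Mean CHiCAGO score of each interaction, over the replicates that called it, against distance from the promoter fragment, for ATP1B1 (kb), the 3′ fragment of NOS1AP (kb), and RNF207 near (kb) and far (Mb). Negative distances are upstream, symbols show in how many replicates an interaction was called, the dotted line is the lowest score listed (5), interactions outside the ranges drawn are not shown, and the highest scores lie at 502 kb for ATP1B1 and at 287 kb, the start of the gene, for NOS1AP.

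The same block was contacted by other promoters. In all, 6 promoter fragments had 82 interactions with it. LINC00970, a non-coding gene whose promoter fragment lies 19.4 kb from that of ATP1B1, contacted 21 of its fragments, with 14, 8 and 8 called per replicate and 3 in all 3. A promoter fragment over the annotated 3′ end of ATP1B1, chr1:169279542-169283623, held no transcript start of a gene with a symbol. It contacted 15, of which 5 in all 3 replicates, and the shared fragment of BLZF1 and NME7 contacted 5, of which 2 in all 3. ATP1B1 and LINC00970 shared 20 PIRs, which were 42.6% of those of ATP1B1 and 95.2% of those of LINC00970. ATP1B1 and the fragment at its 3′ end shared 18, or 38.3% and 69.2%.

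Contacts also ran in the reverse direction, from the promoter of DPT into ATP1B1. With the promoter fragment of ATP1B1 left out, other promoters had 15 interactions with fragments inside the gene. As annotated, ATP1B1 runs from 169074935 to 169280230 and overlaps NME7, so some of these fragments also lie in NME7. The DPT promoter fragment accounted for 11 of them, with 6, 6 and 5 called per replicate. One of the 11, chr1:169097800-169098962 at 399 kb, lay in ATP1B1 and not in NME7. It was called in all 3 replicates and scored 10.40, 7.56 and 8.72 (8.89 ± 1.43, SD, n = 3).

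RNF207 had the most interactions in the union of the replicates, 76 against 47 for ATP1B1. The order turned on the merged replicates, with 33 for RNF207 and 51 for ATP1B1, and within 1 Mb, with 19 and 46. Its promoter fragment, chr1:6258535-6274327 (15793 bp), held all 9 of its transcript starts and also starts of RPL22, a ribosomal protein gene, and of RNF207-AS1, so contacts of these promoters cannot be told apart. Of its 76 interactions 19 lay within 1 Mb, 56 over 1 Mb and 1 on another chromosome, and their median distance was 2720 kb. Within 1 Mb 11 of 19 were called in all 3 replicates. Over 1 Mb 5 of 56 were, and 46 of those 56 were called in 1 replicate. At least 1 contact over 1 Mb in all 3 replicates was found for 9.1% of all promoter fragments.

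Near the gene, RNF207 contacted KCNAB2, which encodes a beta subunit of voltage-gated potassium channels. A block over this gene, chr1:6070297-6150326, had all 11 of its HindIII fragments among the PIRs, with 6, 6 and 11 called per replicate and 5 called in all 3. The highest score was that of chr1:6116902-6117681, 149 kb upstream in an intron of KCNAB2, with 11.02, 10.74 and 11.61 (11.1 ± 0.444, SD, n = 3) and 17.66 on the merged replicates. The next fragment, chr1:6103546-6116901, scored 6.35, 7.56 and 9.55 (7.82 ± 1.62). A further one, chr1:6130641-6134664, scored 6.93, 6.92 and 6.92, and was thus almost equal between replicates. No listed promoter fragment lay in this block. The promoter of CHD5, a chromodomain helicase gene, contacted 9 fragments of the block, 4 of them in all 3 replicates.

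Downstream, RNF207 contacted 4 of 4 HindIII fragments in chr1:6275888-6308873, over ICMT, a gene for the methyltransferase of prenylated proteins. The fragment chr1:6275888-6283976, which covers exons of RNF207 and ICMT, scored 8.04, 9.06 and 8.46 (8.52 ± 0.513, SD, n = 3). The promoter fragment of ICMT scored 6.65, 7.03 and 5.58 (6.42 ± 0.752). At 187.5 kb the promoter fragment of ACOT7, which encodes an acyl-CoA thioesterase, scored 8.59, 6.88 and 6.63 (7.37 ± 1.07). Of 18 protein-coding neighbours within 500 kb, ICMT and ACOT7 were contacted in all 3 replicates and ESPN, HES3, PLEKHG5 and TNFRSF25 in 1 or 2.

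The distant contacts of RNF207 that recurred lay mostly in 1 block. In the block chr1:3684836-3821667, 2446 to 2580 kb upstream, 14 of 26 HindIII fragments were PIRs, with 9, 8 and 9 called per replicate (8.67 ± 0.577, SD, n = 3), and 4 were called in all 3. The fragment chr1:3819684-3821667 in LINC01134 scored 11.89, 6.42 and 14.98 (11.1 ± 4.33), and chr1:3684836-3688546 in CCDC27 scored 6.01, 13.59 and 10.67 (10.1 ± 3.82). The promoter fragment of SMIM1, which encodes a small red cell membrane protein, scored 5.70, 7.78 and 16.36 (9.95 ± 5.65). That of C1orf174 and LINC01134 scored 8.46, 6.90 and 11.34 (8.9 ± 2.25). The SDs of these 4 scores, 2.25 to 5.65, were larger than the 0.444 of the KCNAB2 fragment of similar mean score, and the replicate with the highest score was not the same for all 4. The merged calls scored these 4 fragments 10.78, 9.25, 7.13 and 10.41 in the same order, within the range of the single replicates, while the KCNAB2 fragment scored higher on the merged replicates than in any single one. Another distant fragment called in all 3 replicates, in an intron of WRAP73 at 2701 kb, scored 6.29, 8.56 and 9.61 (8.15 ± 1.7).

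Neighbouring promoters reached the same distant block. CHD5 contacted 14 of its fragments, with 4, 7 and 7 called per replicate and none in all 3. The shared fragment of KCNAB2 and NPHP4 contacted 12, with 8, 6 and 7 per replicate and 3 in all 3. RNF207 shared 25 PIRs with CHD5 (32.9% of those of RNF207 and 53.2% of those of CHD5), 8 with KCNAB2 and NPHP4, and 6 with MEGF6, whose promoter lies 2739 kb away.

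**Figure D3:**
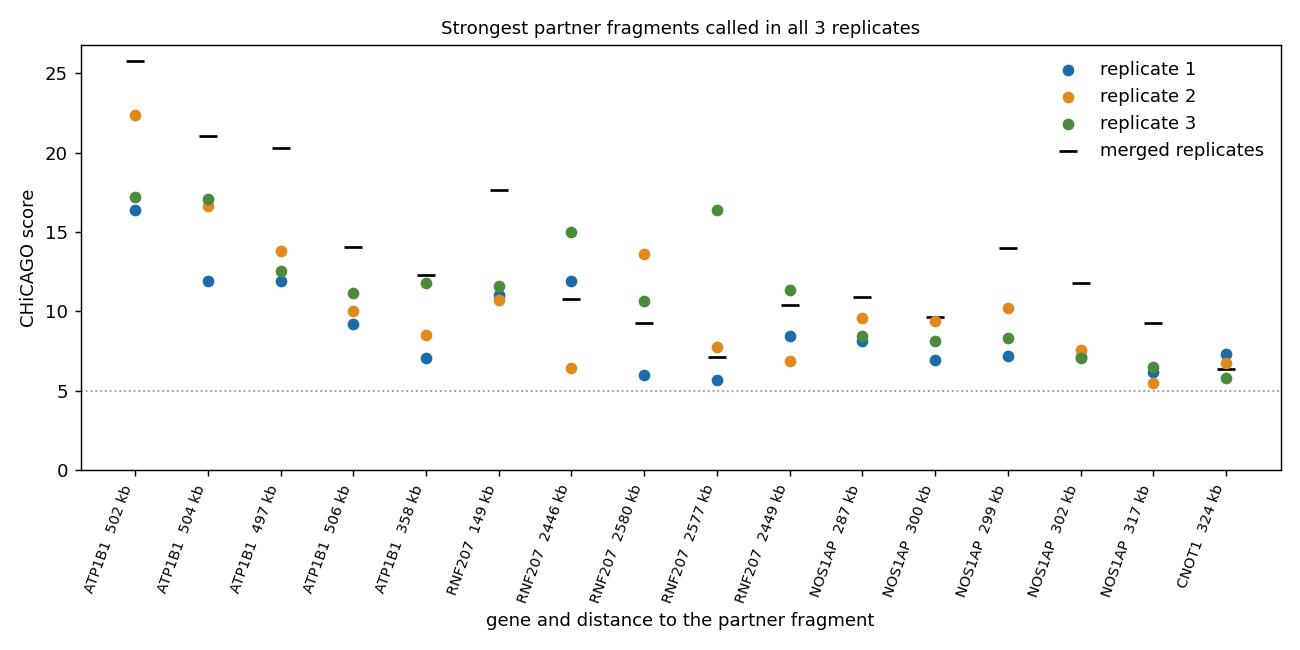
CHiCAGO scores of the PIRs with the highest mean score among those called in all 3 replicates, at most 5 for each promoter fragment, with 1 point per replicate and a bar for the merged replicates; the distance in kb stands on the axis, and the dotted line is the lowest score listed (5). The PIRs of ATP1B1 and NOS1AP and the RNF207 PIR at 149 kb score highest on the merged replicates, while the merged scores of the distant PIRs of RNF207 lie within the range of their replicates.

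The contacts of NOS1AP that recurred joined the ends of the gene. The gene runs from 162039481 to 162340265 on chromosome 1. Its 5′ fragment, chr1:162037369-162059915 (22547 bp), held 3 of its 6 transcript starts. A second fragment, chr1:162333421-162337861 (4441 bp), held 1 start near the 3′ end, which was not that of a protein-coding transcript. A further 2 starts of NOS1AP lay on no listed promoter fragment. A gene without a symbol also started on 1 of the NOS1AP fragments, so contacts of these promoters cannot be told apart there. These fragments contacted each other over 287 kb with scores of 8.14, 9.57 and 8.45 (8.72 ± 0.752, SD, n = 3). The 5′ fragment had 6 interactions and its other contact in all 3 replicates was with the shared promoter fragment of C1orf226 and SPATA46, just past the end of NOS1AP, at 6.95, 9.42 and 8.13 (8.17 ± 1.24).

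The 3′ fragment had 15 interactions and contacted 9 of the 10 HindIII fragments in a block of 51.75 kb, chr1:162008165-162059915, that covers the 5′ fragment and the sequence before it. Of these, 6, 8 and 6 were called per replicate and 4 in all 3, and all 9 were also called on the merged replicates. Directly before the 5′ fragment, chr1:162035101-162037368 scored 7.17, 10.20 and 8.35 (8.57 ± 1.53, SD, n = 3). Further upstream chr1:162033121-162034010 scored 7.15, 7.59 and 7.04 (7.26 ± 0.291), and 317 kb from the 3′ fragment chr1:162018060-162018534 scored 6.16, 5.50 and 6.50 (6.05 ± 0.508). All 3 lie between OLFML2B and NOS1AP.

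Other promoters near the 3′ end of NOS1AP contacted that block too, and 9 promoter fragments had 40 interactions with it. The fragment of C1orf226 and SPATA46 contacted 10 fragments, with 8, 8 and 9 called per replicate and 7 in all 3, more than the 4 of the NOS1AP 3′ fragment. SH2D1B, which encodes an adaptor of immune cells, contacted 8 (1 in all 3), MIR556 4 (1 in all 3) and UHMK1 3 (none in all 3). The 3′ fragment shared 10 PIRs with the fragment of C1orf226 and SPATA46, 66.7% of its own and 83.3% of theirs. With its own promoter fragments left out, fragments inside NOS1AP received 5 interactions from other promoters. Each came from a different promoter, and none was called in all 3 replicates.

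CNOT1 had about as many calls per replicate as NOS1AP, and 1 of them recurred in all 3. Its 5′ fragment, chr16:58662728-58675018, held 10 of 22 transcript starts and had 11 interactions, of which none was called in all 3 replicates. The fragment chr16:58588857-58597523, with 2 starts and the small nucleolar RNA gene SNORA50, had 10 and none in all 3. The third, chr16:58548232-58563219, holds 1 short transcript start at the 3′ end of the gene and the start of SETD6, a lysine methyltransferase gene. The CNOT1 start there was not that of a protein-coding transcript, and contacts of CNOT1 and SETD6 cannot be told apart on this fragment. It had 10 interactions, with 1 in all 3. That 1 contact was with the promoter fragment of CSNK2A2, a catalytic subunit of casein kinase 2, 324 kb away, and scored 7.30, 6.75 and 5.83 (6.63 ± 0.743, SD, n = 3) and 6.37 on the merged replicates. For 13.8% of promoter fragments with a contact in all 3 replicates the highest mean score was lower than this.

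Other contacts of CNOT1 were called in 1 or 2 replicates. The 5′ fragment contacted the fragment shared with SETD6, 113 kb away, with 5.33 and 6.66 in replicates 1 and 2. The latter contacted the fragment of RNU6-1155P with 5.25 and 5.33 in replicates 2 and 3, and that of GOT2, a mitochondrial aminotransferase gene, with 5.44 in replicate 2. The remaining 27 of 30 were called in 1 replicate, GOT2 included. All 14 contacts over 1 Mb were among them, and the highest of these, 11.20 in replicate 3 at 10806 kb, was in TERF2. Of the 30, 4 were also called on the merged replicates, against 56.7% of the interactions of all promoter fragments. Without replicate 2, which had 15 of the calls, the number of interactions fell from 30 to 18.

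LITAF had 2 interactions, both called in 1 replicate and neither on the merged replicates. Its promoter fragment, chr16:11676208-11694217 (18010 bp), held 15 of 19 transcript starts. It contacted an intron of CLEC16A at 638.8 kb with 7.49 in replicate 1 and a fragment on chromosome 17 with 5.52 in replicate 3. None of its 10 protein-coding neighbours within 500 kb was contacted, and 1 interaction of another promoter, called in replicate 1, reached into the gene. Contacts with a score under 5 would not be seen here.

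The promoter fragment of SLC35F1, chr6:118225697-118232110 (6414 bp), held 1 of 2 transcript starts and had no call in any single replicate. On the merged replicates it had 3, with adjacent fragments inside the same gene, 355 to 362 kb downstream, at 5.20, 5.69 and 6.15. In contrast, the gene itself was contacted by the promoter of PLN, 644 kb from that of SLC35F1. Of the 14 PIRs of PLN 11 lay inside SLC35F1, with 6, 7 and 9 called per replicate and 4 called in all 3.

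The strongest of these, chr6:118604537-118605018, is shown in part above and scored 21.68, 19.10 and 21.06 (20.6 ± 1.35, SD, n = 3) over 268 kb, and 39.92 on the merged replicates. The adjacent chr6:118600760-118604536 scored 15.85, 14.34 and 18.64 (16.3 ± 2.18), and chr6:118605019-118612964 scored 12.02, 16.27 and 11.68 (13.3 ± 2.56). The next one, chr6:118612965-118616899, scored 6.20, 10.13 and 6.75 (7.69 ± 2.13). None of the 3 merged PIRs of SLC35F1 was a PIR of PLN in a replicate, and 2 of them were PIRs of PLN on the merged replicates. The other promoter that reached into SLC35F1, the shared one of ASF1A and MCM9, did so once, in replicate 1.

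**Figure D4:**
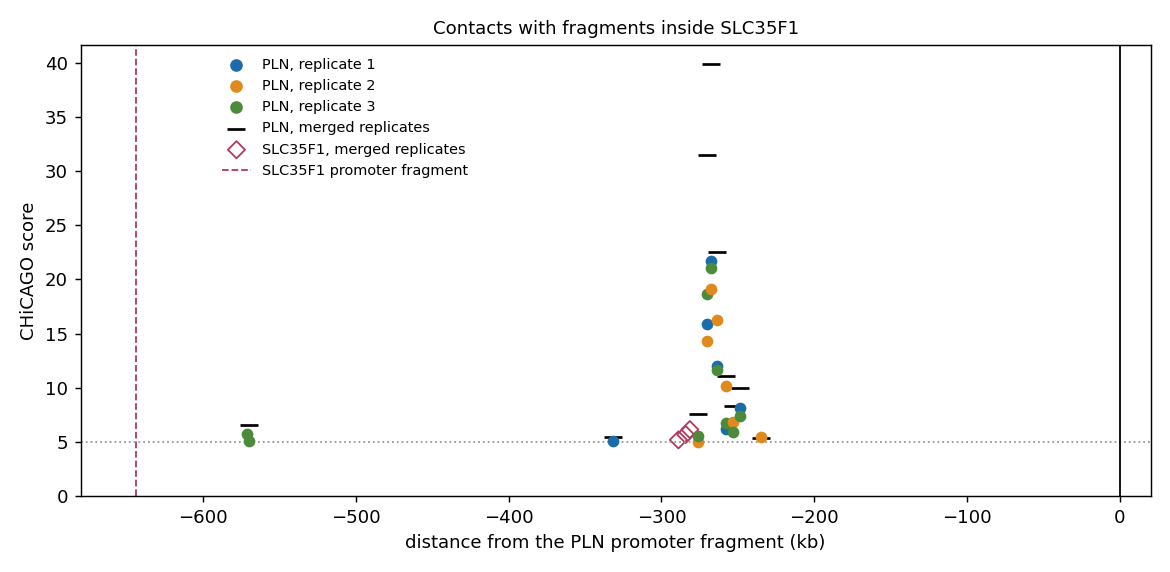
CHiCAGO scores of contacts with fragments inside SLC35F1, against distance from the PLN promoter fragment in kb (negative is toward SLC35F1). Points are the PLN contacts in each replicate, bars the merged scores of the same PLN contacts, and diamonds the 3 merged contacts of the SLC35F1 promoter fragment, whose position is the dashed line; the highest PLN scores, 19.10 to 21.68 per replicate, lie at 268 kb.

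Over the 6 genes, 43 interactions of other promoters ended inside the gene bodies, with 23, 17 and 24 called per replicate. These counts leave out contacts that ended on a promoter fragment of the gene itself, such as that of C1orf226 and SPATA46 with the 5′ fragment of NOS1AP. Of these, 15 lay in ATP1B1 (some also in the overlapping gene NME7), 12 in SLC35F1, 8 in CNOT1, 5 in NOS1AP, 2 in RNF207 and 1 in LITAF. Those called in all 3 replicates numbered 4 in SLC35F1 and 1 each in ATP1B1, CNOT1 and RNF207. In RNF207 that contact came from the promoter of ICMT and ended on chr1:6275888-6283976, which is itself a PIR of RNF207, with 6.68, 7.18 and 5.40 (6.42 ± 0.918, SD, n = 3). In CNOT1 it came from the promoter of SLC38A7, which encodes a lysosomal amino acid transporter, with 5.49, 5.63 and 5.59 over 132.6 kb (5.57 ± 0.0721). It ended on chr16:58581623-58584823, which lies in CNOT1 and is the promoter fragment of SNORA46, so both ends were promoter fragments. A further 4 of the 8 in CNOT1 came from CA7, a carbonic anhydrase gene 8300 to 8311 kb away, and each was called in 1 replicate.

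Other genes of the QT interval gave the setting for these values. At least 1 interaction called in all 3 replicates was found for 4 of the 6 genes, against 11 of 17 genes of Mendelian long QT syndromes (64.7%), 18 of 28 genes named for other QT associations (64.3%) and 43% of 20149 protein-coding genes. Of the 4, CNOT1 had it only on the fragment shared with SETD6. The median number of interactions in the union was 25 for the 6 genes, 8 for the Mendelian genes, 10 for the association genes and 5 for all protein-coding genes. The 25 counts NOS1AP over 2 promoter fragments and CNOT1 over 3. A count with only the promoter fragment that holds the most transcript starts of each gene was chosen after seeing the data. The medians were then 8.5, 7, 10 and 4. By that count 3 of the 6 genes had an interaction in all 3 replicates. The shares were 64.7% of the Mendelian genes, 64.3% of the association genes and 41.9% of all protein-coding genes. The 6 potassium channel genes of the Mendelian list had 5 to 20 interactions each, of which 0 to 6 were called in all 3 replicates. In the union RNF207, with 76, had more interactions than any gene of both lists, and ATP1B1, with 47, more than any but SPATS2L, which had 70 and also the most in all 3 replicates, 37.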

How the data were processed

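Calls of promoter capture Hi-C on GRCh37 were deposited for each of 3 biological replicates of hESC-CMs and once for the replicates merged. The authors mapped reads with HiCUP and called pairs of HindIII fragments with CHiCAGO at default parameters, and each deposited score is a CHiCAGO score of at least 5. The merged calls are the authors' pooled values and have no SD. Read counts and depth were not used here.

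Transcript starts came from GENCODE v44 lifted to GRCh37. Interactions were counted as unordered pairs in the union of the replicates. Interactions of other promoters inside a gene were counted without the promoter fragments of that gene. Distances are between fragment midpoints, mean scores are over the replicates that called a pair, and SDs are between replicates. Share intervals are 95% Wilson intervals for counting error only, and a count of 0 was given the limit of 3 counts. Neighbours in the order of the genes were compared by exact permutation of the within-replicate differences. Counting was tested on simulated data.

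The 6 genes and all lists were chosen with earlier results of these data known. Names were drawn from the 5 PIRs per promoter fragment with the highest mean score among those called in all 3 replicates, genes starting on PIRs called in all 3, the 3 promoters sharing the most PIRs, and the promoters with the most contacts in each gene. Not all that this rule gave were named. Left out were the promoters sharing PIRs with LITAF, CNOT1 and the 5′ fragment of NOS1AP, and the promoter reaching into LITAF, among others. CLEC16A, TERF2, WRAP73 and other single fragments outside this rule were chosen after their values were seen, as was SPATS2L within the lists. Alternatives were other score minimums, each replicate left out, merged calls, ordered pairs, matching within 5 kb, same-chromosome pairs, pairs within 1 Mb, and other promoter definitions. Scripts ran under Python 3.11.15, using scipy 1.17.1, numpy 2.4.6 and, for plots, matplotlib 3.10.9.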

Additional observations from a re-analysis of the deposited data

Results flagged for a closer look

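The calls on the merged replicates were no part of the counts over replicates, and they held 3 interactions for the SLC35F1 promoter fragment, which had 0 in the single replicates. Their scores were 5.20, 5.69 and 6.15, close to the lowest score listed, and they lay on 3 adjacent fragments inside SLC35F1. Across all promoters 580 promoter fragments were listed on the merged replicates and in no single replicate.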

How the results depend on the processing

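The 175 interactions fell to 74 with scores of at least 7, to 24 with at least 10 and to 97 within 1 Mb, and lay between 128 and 146 without 1 replicate. The merged replicates gave 108, which include the 3 of the SLC35F1 promoter fragment, and 105 for the same 8 fragments. The merged median distance given below includes these 3 as well. The share called in all 3 replicates, 26.3%, was 17.6% with scores of at least 7, 16.7% with at least 10, 42.3% within 1 Mb and 44.6% when PIRs within 5 kb were matched. Without 1 replicate the share called in both of the others was 37.1% to 39%. The median distance, 494 kb, was 638.8 kb with scores of at least 7, 2501 kb with at least 10, 366 kb within 1 Mb, 369.6 kb on the merged replicates, 608 kb with protein-coding starts only, 595.8 kb with 1 promoter fragment per gene and 479 to 485 kb without 1 replicate. The 43 interactions of other promoters inside the genes fell to 14 with scores of at least 7 and to 6 with at least 10, and were 30 to 38 without 1 replicate. The share of PIRs that are promoter fragments, 13.6%, stayed between 11.2% and 17.3% under all 11 alternatives. By gene, NOS1AP had 6 interactions with protein-coding starts or with 1 promoter fragment. CNOT1 had 18 without replicate 2, 15 within 1 Mb, 11 with 1 promoter fragment and 6 on the merged replicates. RNF207 had 19 within 1 Mb and 33 on the merged replicates, below the 46 and 51 of ATP1B1, and LITAF had 1 without replicate 1 or without replicate 3. No paired analysis of groups of samples was possible because the 3 replicates formed 1 group. Replicate numbers pair only genes within a library, as in the comparison of neighbours in the order of the genes. Depth limits could not be set, since only scores of 5 and above were used.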
